A study of Homo sapiens with 6 samples.

Results

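The genes described here are 10 SR splicing factors, taken by symbol from the count table: *SRSF1*, *SRSF2*, *SRSF3*, *SRSF5*, *SRSF6*, *SRSF7*, *SRSF10*, *SRSF11*, *TRA2A* and *TRA2B*. All 10 were found among its 26485 gene names, and all 10 passed the filter on low counts. RNA was sequenced from HEK293 cells, a line derived from human embryonic kidney, in 3 cultures with knockdown of the long noncoding RNA *HSALNG0134318* and in 3 control cultures. For the knockdown, cells were transiently transfected, with the lipid reagent Lipofectamine RNAiMAX, with a Smart Silencer, which combines siRNAs and antisense oligonucleotides against the lncRNA. The control cultures carry the abbreviation NC and the genotype WT in the labels, and what they were transfected with, the dose and the time of harvest are not given in the sources used here. Sample titles write HEK393 where the cell line field writes HEK293. All cultures come from 1 cell line, so the replicates measure the spread between cultures and not between genetic backgrounds.

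SR proteins are RNA-binding proteins with at least one RNA recognition motif and a domain rich in arginine and serine dipeptides, the RS domain. Bound to exonic splicing enhancers, of which purine-rich stretches with repeated GAA are the classical kind, they recruit the splicing machinery to the neighbouring splice sites. The RS domain is phosphorylated by the SRPK and CLK kinases, which sets where the proteins reside and how they act. Many SR genes limit their own output: the protein favours inclusion of a poison exon or a similar event in its own transcript, and the resulting mRNA is destroyed by nonsense-mediated decay (NMD).

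Transcripts of the NMD class are annotated for each of these genes. In GENCODE release 44 on GRCh38, all 10 genes have at least 1 transcript of the NMD class, from 1 for *SRSF5*, *SRSF6* and *TRA2B* to 6 for *SRSF7*, against 39.1% of the 18107 protein-coding genes in the count table. Internal exons that occur in NMD transcripts and share no base with an exon of a protein-coding transcript are annotated in 6 of them (*SRSF3*, *SRSF6*, *SRSF7*, *SRSF10*, *SRSF11* and *TRA2B*), against 19.7% of those protein-coding genes. The window of 30 bases with the most GAA triplets is shown for 3 of these exons. They run from an exon rich in GAA to an exon almost without GAA. A 98-base exon of *SRSF3* and a 69-base exon of *SRSF7*, not shown, hold 0 GAA triplets. Capitals mark every GAA, and the sequences are the RNA strand written as DNA, 5′ to 3′.
TRA2B, minus strand of chr3:185931631-185931660, in a 276-base exon: GAAtttGAAacgGAAGAAtGAAGAAaaGAA
SRSF10, minus strand of chr1:23978126-23978155, in a 363-base exon: GAAgaGAAgggagagtttggGAAaaGAAaa
SRSF3, plus strand of chr6:36600123-36600152, in a 456-base exon: ggctaacaaaaaagcagGAAaaatccacaa

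The *TRA2B* window holds 7 GAA triplets and 25 purines, and its whole exon holds 28 GAA triplets, or 10.1 per 100 bases. The *SRSF10* exon holds 14 GAA triplets (3.86 per 100 bases) and the 456-base *SRSF3* exon 3 (0.658 per 100 bases). Over 7057 internal exons of this kind in all genes, the median was 1.94 per 100 bases, and 16 exons, that of *TRA2B* included, reached the value of *TRA2B*. The hexamers GAAGAA and AGAAGA, searched on the RNA strand only and counted with overlaps, had 3 matches in the *TRA2B* exon, 1 in the *SRSF10* exon and 0 in the *SRSF3* exon. Of 206 such exons of 250 to 300 bases in all genes, 25.7% held at least 1 of these hexamers and 6.31% held 3 or more. A match of letters is a description and not a mapped enhancer. The deposited counts sum all transcripts of a gene, so the use of these exons was not measured, and a shift between productive and NMD transcripts would appear here only as far as it changed the total.

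The knockdown libraries held between 13900965 and 15583535 counts and the control libraries between 14732648 and 16869948. Control replicate 2 stood apart: over all genes tested its root mean square distance in log2 CPM (counts scaled to equal library totals) to the other controls was 0.44 and 0.49, and the distance between the other two controls was 0.37. Within the knockdown group the distances were between 0.27 and 0.31. Between the groups they ran from 0.40 to 0.55. Control replicate 3 lay 0.41, 0.40 and 0.41 from knockdown replicates 1, 2 and 3, nearer than its 0.49 from control replicate 2. By counts, not divided by transcript length, the SR genes were among the more abundant genes. Their means over the 6 libraries ran from 2144 counts for *TRA2A* to 8499 for *SRSF1*. These levels lay between the 89.3rd and the 98.9th percentile of the 14877 genes that passed edgeR's filter on low counts. The silenced lncRNA was not analysed here, so the extent of the knockdown was not checked. The HEK293 identity was checked with 8 markers, all of which passed the filter. Their summed levels ran from 1069 to 1407 CPM in the controls and from 1242 to 1429 in the knockdown libraries. *VIM* gave the largest part of this sum and *PAX2* the smallest, with control means of 11085 and 143 counts, scaled as described below. Of 12 markers of blood, endothelium, liver, fibroblasts, muscle and beta cells, only *COL1A1* and *COL3A1* passed, and *CD3E* and *INS* had no count in any library. Counts are given below as normalized counts, which are scaled by TMM (a method that equalizes libraries on genes that differ little) to the mean library size. Fold changes are knockdown over control on the log2 scale, from edgeR's quasi-likelihood test, and a gene was called at an adjusted p (Benjamini-Hochberg over all 14877 genes) under 0.05. P-values set the difference between the groups against the spread between cultures within each group. In bulk RNA, fewer cells with a transcript and less of it per cell cannot be told apart.

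None of the 10 SR genes was called in either direction, where 4.64% of all genes tested were called lower and 5.40% higher. At an unadjusted p under 0.05, 1 of the 10 genes differed, *SRSF7*, as did 26.9% of all genes tested. The DESeq2 Wald test and limma-voom also called 0 of the 10. The log2 fold changes ran from -0.24 for *SRSF7* to 0.24 for *SRSF5*, with 7 negative and 3 positive values. Their median was -0.05, beside -0.02 over all genes tested. The 95% intervals of the 10 fold changes, which are not adjusted for the number of genes, all lay between -0.42 and 0.55 on the log2 scale. The knockdown and control values did not overlap in 2 of the 10 genes, *SRSF7* and *TRA2B*, while they did not overlap in 32.2% of all genes tested.

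**Figure D1:**
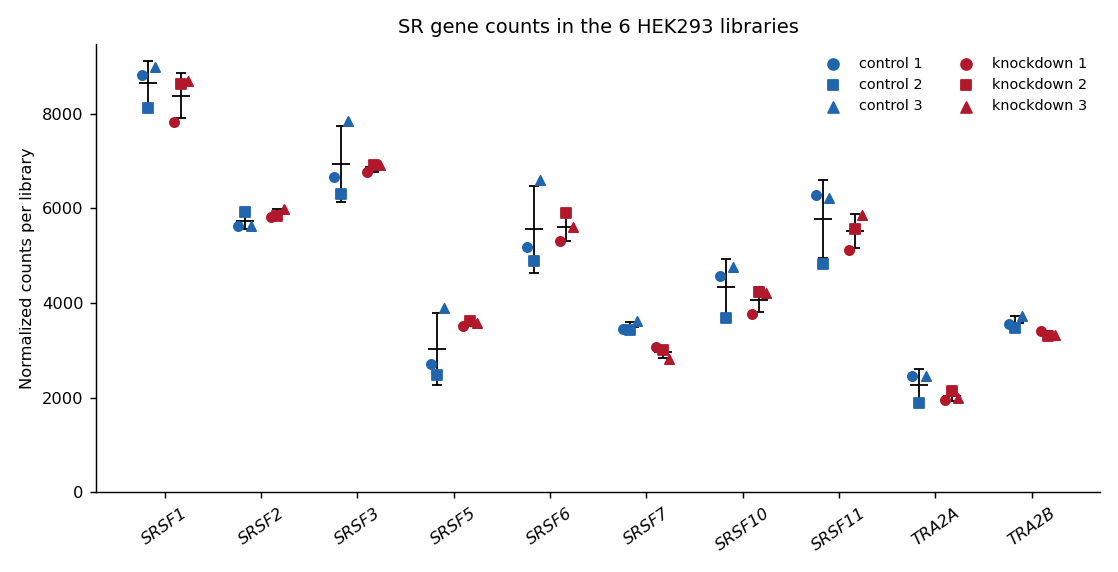
Normalized counts (vertical axis) of the 10 SR genes (horizontal axis) in 3 control libraries (blue) and 3 knockdown libraries (red), with symbols for the replicate number and black bars for the mean ± SD of each group. The control libraries of *SRSF5* spread from 2476 to 3901 around tightly grouped knockdown libraries, and only *SRSF7* and *TRA2B* show groups that do not overlap.

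*SRSF1* encodes the prototype of the family, with a pair of RNA recognition motifs, a protein that binds GGA and GAA-rich enhancers and shuttles between nucleus and cytoplasm. It was the most abundant member by counts, with 7831, 8627 and 8692 normalized counts in knockdown replicates 1, 2 and 3 and 8829, 8125 and 8997 in control replicates 1, 2 and 3. The groups overlapped, and knockdown replicate 1 was the lowest of the 6 libraries. The means were 8383 ± 480 and 8650 ± 463 (SD, n = 3), a log2 fold change of -0.05 with a 95% interval from -0.24 to 0.15 (adjusted p of 0.79 from edgeR). Its gene lies on the minus strand of chromosome 17 from 58000919 to 58007346 in GENCODE release 44 on GRCh38.

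*SRSF2* (SC35), long used as the marker protein of nuclear speckles, recognizes both purine- and pyrimidine-rich motifs. Normalized counts were 5811, 5848 and 5994 in knockdown replicates 1, 2 and 3 and 5636, 5919 and 5636 in the controls. All 6 values lay close together, and control replicate 2 fell inside the knockdown range. The log2 fold change was 0.04 (interval -0.14 to 0.22, adjusted p of 0.80 from edgeR). The gene (chromosome 17, 76734115 to 76737333, minus strand) overlaps exons of *MFSD11* on the opposite strand, and the strand setting of the counting is not given in the sources used here. *MFSD11* itself was not called (0.14 on the log2 scale, edgeR adjusted p of 0.43) and had from 439 to 530 normalized counts per library.

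*SRSF3*, the smallest SR protein and a binder of pyrimidine-rich rather than purine-rich sites, had 6762, 6922 and 6918 normalized counts in the knockdown libraries and 6663, 6311 and 7840 in control replicates 1, 2 and 3. The knockdown libraries lay within the range of the controls, of which control replicate 3 was the highest library of all. The log2 fold change was -0.01 (interval -0.23 to 0.20, adjusted p of 0.94 from edgeR), and its sign turned when control replicate 3 was left out (0.09). *SRSF6*, a protein with a pair of RNA recognition motifs that is close to SRSF4 and SRSF5, had 5316, 5914 and 5603 normalized counts in the knockdown libraries and 5181, 4894 and 6610 in the controls. Its knockdown values also lay inside the control range, and the log2 fold change was 0.01 (interval -0.24 to 0.27, adjusted p of 0.96 from edgeR). With 1 library left out, the value ran from -0.07 to 0.16.

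*SRSF5*, an SR protein first described in regenerating liver and induced by insulin (HRS), showed the largest positive value and the widest interval. Normalized counts were 3519, 3631 and 3590 in the knockdown libraries, which differed among themselves by an SD of 1.58% of the mean, and 2723, 2476 and 3901 in control replicates 1, 2 and 3, with an SD of 25.1% of the mean. Control replicates 1 and 2 lay below the knockdown libraries and control replicate 3 above them, so the groups overlapped. Means were 3580 ± 56.6 and 3034 ± 762 (SD, n = 3), and the log2 fold change was 0.24 ± 0.14 (SE; interval -0.08 to 0.55, adjusted p of 0.32 from edgeR). This value rested on the choice of controls: without control replicate 3 the log2 fold change was 0.47 and *SRSF5* was called (adjusted p of 0.0095 from edgeR), and without control replicate 2 it was 0.11 (adjusted p of 0.55). Without control replicate 3, 13.7% of all genes tested were called.

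*SRSF7* (9G8), which has a zinc knuckle beside its RNA recognition motif and takes part in mRNA export and polyadenylation site choice, showed the largest negative value. Normalized counts were 3075, 3010 and 2820 in the knockdown libraries and 3449, 3426 and 3617 in the controls, so that every knockdown library lay below every control library. The means were 2968 ± 132 and 3498 ± 104 (SD, n = 3), a level of 84.9% of the control (interval 74.9% to 96.2%). On the log2 scale this was -0.24 ± 0.08 (SE). The unadjusted p from edgeR was 0.015 and the adjusted one 0.094. It was called in 1 of the 14 alternative fits, the one without control replicate 2 (log2 fold change of -0.25, adjusted p of 0.034), in which 16.7% of all genes tested were called, and its adjusted p ran up to 0.36 over the others. With 1 library left out, its log2 fold change stayed between -0.26 and -0.20. *SRSF7* lies on the minus strand of chromosome 2 from 38743599 to 38751494.

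**Figure D2:**
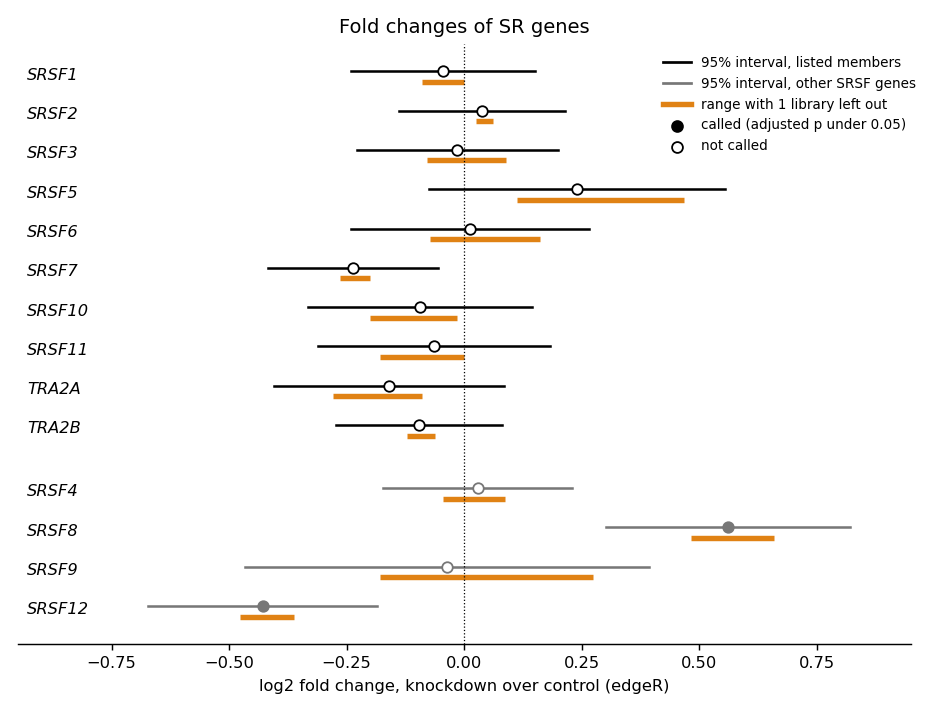
Log2 fold change of knockdown over control from edgeR (horizontal axis) for the 10 SR genes (black) and the other 4 SRSF genes (grey), with 95% intervals, filled circles for called genes and orange bars for the range when 1 library is left out. Of the 10 SR genes, *SRSF7* alone has an interval that leaves out 0, while *SRSF8* and *SRSF12* are the called genes.

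The SR-like members differ in arrangement or function from the canonical proteins, and all 4 had small negative values. *SRSF10* acts as a splicing repressor when it is dephosphorylated, as in heat shock and mitosis. It had 3767, 4238 and 4206 normalized counts in the knockdown libraries and 4577, 3682 and 4772 in the controls. Control replicate 2 was the lowest and control replicate 3 the highest library, and the log2 fold change was -0.09 (interval -0.33 to 0.14, adjusted p of 0.62 from edgeR). Without control replicate 2 it was -0.20 (adjusted p of 0.094) and without control replicate 3 it was -0.02 (adjusted p of 0.94). *SRSF11* (p54) is an RS-domain protein that interacts with the U2AF heterodimer. It had 5132, 5574 and 5866 normalized counts in the knockdown libraries and 6277, 4827 and 6221 in the controls, a log2 fold change of -0.06 (interval -0.31 to 0.18, adjusted p of 0.76 from edgeR). The knockdown libraries lay between control replicate 2 and the other controls, and the value was -0.18 without control replicate 2 and within 0.01 of 0 without control replicate 1 or 3.

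*TRA2A* and *TRA2B* encode the human counterparts of the fly sex determination factor Transformer-2. These proteins have RS domains on both sides of the RNA recognition motif and bind GAA-rich enhancers. *TRA2A* had 1964, 2145 and 1986 normalized counts in the knockdown libraries and 2458, 1886 and 2467 in the controls. Control replicate 2 lay below all knockdown libraries and the other controls above them. The log2 fold change was -0.16 (interval -0.40 to 0.08, adjusted p of 0.39 from edgeR). Without control replicate 2 it was -0.28 and *TRA2A* was called (adjusted p of 0.024 from edgeR), whereas without control replicate 3 it was -0.09 (adjusted p of 0.65). *TRA2B* had 3420, 3315 and 3328 normalized counts in the knockdown libraries and 3563, 3467 and 3731 in the controls, with no overlap between the groups. The means were 3354 ± 57.2 and 3587 ± 134 (SD, n = 3), or 93.5% of the control (interval 82.7% to 106%), and -0.10 on the log2 scale (edgeR adjusted p of 0.48). Over the 14 alternative fits *TRA2B* was never called and its log2 fold change ran from -0.12 to -0.06. *TRA2A* lies on the minus strand of chromosome 7 from 23504780 to 23532041 and *TRA2B* on the minus strand of chromosome 3 from 185914558 to 185938103.

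For most of these genes the controls differed more among themselves than the knockdown libraries did. The coefficient of variation was larger in the control group in 8 of the 10 genes, and its median was 12.5% in the controls and 4.66% in the knockdown group. Over all genes tested the medians were 13.3% and 7.82%, and the control value was the larger in 73.2% of genes. Control replicate 2 was the lowest of the controls in 9 of the 10 SR genes, all but *SRSF2*, and in 38.3% of all genes tested. Control replicate 3 was the highest of all 6 libraries in 8 of the 10, all but *SRSF2* and *SRSF11*, and in 14.1% of all genes tested. Summed over the 10 genes, SR transcripts took 0.328%, 0.299% and 0.353% of the counts in control replicates 1, 2 and 3 and 0.310%, 0.327% and 0.328% in knockdown replicates 1, 2 and 3. The 3 knockdown libraries thus lay between the lowest and the highest control.

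**Figure D3:**
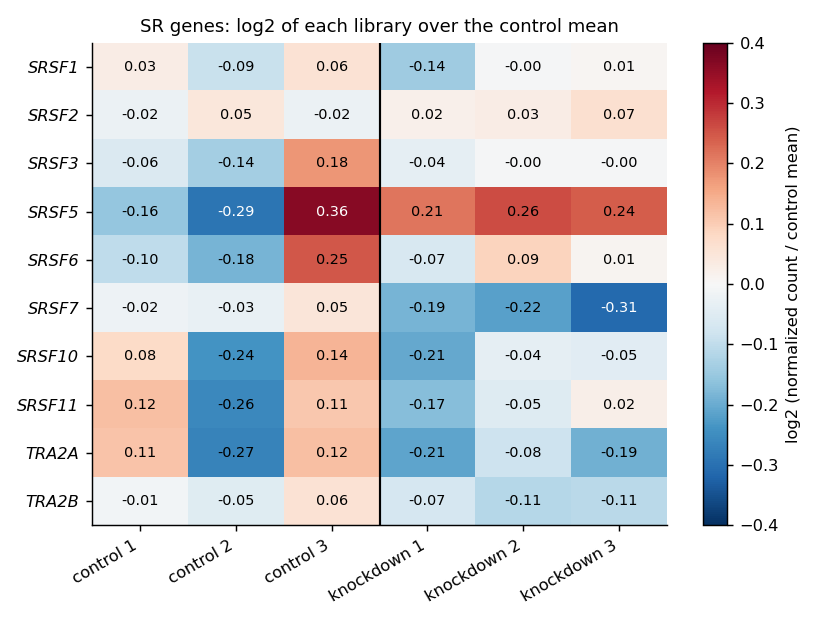
Log2 ratio of each library's normalized count to the control mean (colour and printed value) for the 10 SR genes (rows) in 3 control and 3 knockdown libraries (columns). Control 2 is below the control mean in 9 genes and control 3 above it in 9, and *SRSF3*, *SRSF7*, *SRSF10*, *TRA2A* and *TRA2B* are below it in all 3 knockdown libraries.

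Base composition moved with part of this pattern, and its part in it was not tested. In 9 of the 10 genes, all but *SRSF2*, the canonical transcript had a GC content between 35.9% and 43.0%, below the median of 48.7% over the genes tested, and *SRSF2* has 49.6%. In the 3843 tested genes within that range of GC content, the median log2 ratio to the control mean was -0.14 in control replicate 2, 0.06 in control replicate 3, 0.07 in control replicate 1, and -0.14, -0.02 and -0.04 in knockdown replicates 1, 2 and 3. In the other 10633 genes with known GC content these medians were, in the same order, 0.06, -0.04, -0.04, 0.01, -0.02 and -0.01. The SR genes had medians of -0.16, 0.11, -0.01, -0.11, -0.02 and 0.00. In control replicate 1 the median of the genes within the GC range was above the control mean, and that of the SR genes was not. There *SRSF1*, *SRSF10*, *SRSF11* and *TRA2A* were above the control mean and the other SR genes below it. When each library was corrected for its trend with GC content and exon length, none of the 10 SR genes was called, their median log2 fold change was -0.00 with 5 negative values, and 18.8% of all genes tested were called. *SRSF7* then had a log2 fold change of -0.18, *TRA2A* one of -0.11 and *SRSF5* one of 0.24.

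Levels can be compared between members only per length. For these levels CPM was taken from library totals, without TMM. Divided by the length of the canonical transcript, *SRSF2* was highest with 201 ± 6.53 CPM per kilobase in the controls (SD, n = 3) and 208 ± 4.37 in the knockdown group. *SRSF5* followed with 134 ± 32.5 and 160 ± 2.51, which did not reach the level of *SRSF2* in any library. The next 5 genes lay close together in the controls, from *SRSF3* with 109 ± 11.7, *SRSF1* with 107 ± 5.31, *SRSF7* with 98.2 ± 2.18 and *SRSF11* with 96.5 ± 13.5 to *SRSF6* with 84.5 ± 13.3, and neighbours in this order differed by less than the larger of their SDs except *SRSF1* and *SRSF7*. *TRA2A* had 84.1 ± 12.1 in the controls, *TRA2B* 56.8 ± 1.73 and *SRSF10* 37.5 ± 4.87, the lowest level. The ranks of *SRSF2*, *SRSF5*, *SRSF3* and *SRSF1* at the top and of *TRA2A*, *TRA2B* and *SRSF10* at the bottom were the same in both groups, whereas *SRSF7* went from rank 5 to rank 7. The order depends on the length that is used: per kilobase of all annotated exons, *SRSF5* had rank 8 in the controls with 37.4 ± 9.09, and *TRA2B* was lowest with 18.1 ± 0.552.

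**Figure D4:**
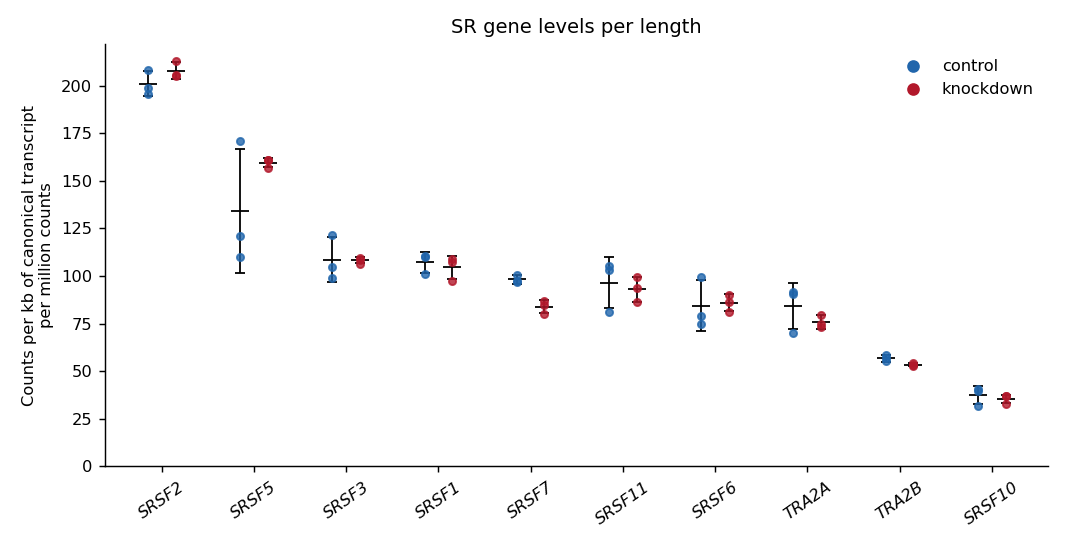
CPM from library totals per kilobase of canonical transcript (vertical axis) for the 10 SR genes in order of their control mean (horizontal axis). There is 1 point per library, with bars for the mean ± SD of the control (blue) and knockdown (red) group. *SRSF2* is highest at about 201 and *SRSF10* lowest at about 37.5 in the controls.

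The other 4 genes with SRSF symbols were read from the same fit. Of these, 1 was called lower and 1 higher, beside 4.64% and 5.40% of all genes tested. The groups did not overlap in 2 of the 4, beside 32.2% of all genes tested. *SRSF8*, which arose as a retrotransposed copy of *SRSF2*, rose from 386, 490 and 425 normalized counts in control replicates 1, 2 and 3 to 619, 647 and 655 in the knockdown libraries. Its groups did not overlap, and it changed by 0.56 ± 0.12 (SE) on the log2 scale (adjusted p of 0.013 from edgeR). It was called in 11 of 14 alternative fits and lost its call without knockdown replicate 2, knockdown replicate 3 or control replicate 1 (edgeR adjusted p of 0.068, 0.074 and 0.058). In these fits 3.55%, 3.51% and 4.44% of all genes tested were called, beside 10% with all 6 libraries. As *SRSF8* shares sequence with *SRSF2*, whose log2 fold change was 0.04, the assignment of reads between them is uncertain. *SRSF12*, a protein related to SRSF10, fell from 641, 602 and 642 to 422, 480 and 498 normalized counts, again without overlap, or by -0.43 ± 0.11 (SE) on the log2 scale (adjusted p of 0.032 from edgeR). It was called in 8 of 14 alternative fits. Leaving out any single library but control replicate 2 ended the call (edgeR adjusted p between 0.053 and 0.13, log2 fold changes between -0.48 and -0.36). Those fits called from 3.51% to 13.7% of all genes tested. *SRSF4* (log2 fold change of 0.03, adjusted p of 0.87 from edgeR) and *SRSF9* (-0.04, adjusted p of 0.93) were not called. Both called genes had lower counts, not divided by length, than every one of the 10 SR genes, at the 55.1st and 55.6th percentile.

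**Figure D5:**
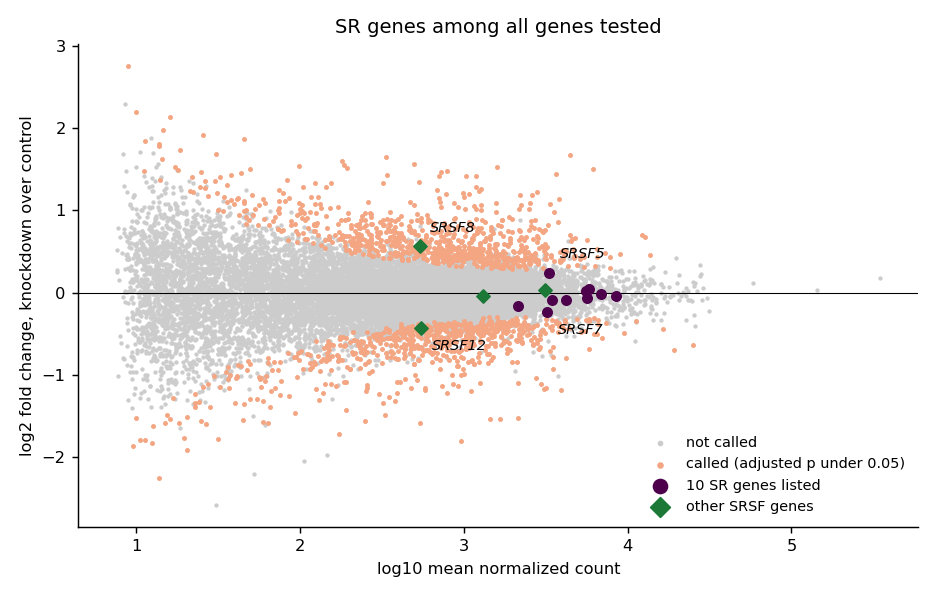
Log2 fold change (vertical axis) against the log10 mean normalized count (horizontal axis) of the 14877 genes tested, in grey where not called and in orange where called, with the 10 SR genes as purple circles and the other 4 SRSF genes as green diamonds. The 10 SR genes lie between -0.24 and 0.24 among the abundant genes, and *SRSF8* and *SRSF12* lie among the called genes of medium abundance.

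The regulators of SR proteins were counted from a list of 14 kinases, phosphatase subunits and the import receptor, of which 1 was called lower and 1 higher (14.3% of the list), beside 4.64% and 5.40% of all genes tested. *SRPK1* and *SRPK2*, the cytoplasmic kinases that prepare SR proteins for nuclear import, had log2 fold changes of -0.03 (interval -0.22 to 0.16) and 0.04 (interval -0.18 to 0.26). *TNPO3*, the transportin that carries phosphorylated SR proteins into the nucleus, had 0.04 (interval -0.16 to 0.23). *CLK1* and *CLK4*, nuclear kinases that release SR proteins from speckles, were not called, but knockdown replicate 1 stood apart from the other knockdown libraries. *CLK1* had 648, 1271 and 1215 normalized counts in knockdown replicates 1, 2 and 3 against 1017, 959 and 967 in the controls, and *CLK4* had 260, 487 and 457 against 387, 344 and 324. Without knockdown replicate 1 the log2 fold changes were 0.34 for *CLK1* and 0.43 for *CLK4*, and neither was called. *DYRK1A*, a kinase encoded on chromosome 21 that also phosphorylates SR proteins, fell from 1936, 1863 and 1647 to 1341, 1512 and 1426 normalized counts (-0.35 ± 0.10 on the log2 scale, SE; adjusted p of 0.040 from edgeR). *PPP1R8*, a nuclear regulator of protein phosphatase 1, rose from 1193, 1111 and 1385 to 1620, 1572 and 1538 (0.36 ± 0.10, adjusted p of 0.043). Each was called in 9 of 14 alternative fits. With libraries left out, each lost the call without any 1 of the knockdown replicates or control replicate 1. The edgeR adjusted p was then between 0.10 and 0.16 for *DYRK1A* and between 0.12 and 0.15 for *PPP1R8*. These fits called from 3.51% to 4.44% of all genes tested, beside 10% with all 6 libraries.

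Other parts of the exon recognition machinery were counted in the same way, beside the 4.64% lower and 5.40% higher of all genes tested. Of 27 proteins with an RS domain or working beside SR proteins, 1 was called lower and 0 higher, with a median log2 fold change of -0.01. It was *SNRNP27*, a protein of the U4/U6.U5 tri-snRNP, which fell from 1081, 925 and 1176 normalized counts in the controls to 699, 759 and 742 (-0.53 ± 0.11 on the log2 scale, SE; adjusted p of 0.012 from edgeR). Of 18 hnRNP proteins, which often oppose SR proteins at exons, and partners of TRA2, 17 were tested, with 1 called lower and 1 higher (11.8% of those tested). *HNRNPM* rose from 5808, 5853 and 6557 to 8912, 8512 and 8039 normalized counts (0.48 ± 0.09, adjusted p of 0.0076), and *HNRNPF*, which binds G runs, fell from 7256, 7792 and 6963 to 6117, 5783 and 5595 (-0.33 ± 0.09, adjusted p of 0.035). In each of these 3 genes the groups did not overlap, as in 32.2% of all genes tested. *SNRNP27* was called in 10 and *HNRNPF* in 9 of 14 alternative fits. With libraries left out, both lost the call without any 1 of the knockdown replicates or control replicate 1. The edgeR adjusted p was then between 0.052 and 0.065 for *SNRNP27* and between 0.082 and 0.19 for *HNRNPF*. These fits called from 3.51% to 4.44% of all genes tested, beside 10% with all 6 libraries. *HNRNPM* was called in 12 of 14 alternative fits and lost the call without knockdown replicate 1 or 2 (edgeR adjusted p of 0.0504 and 0.0503). Of 15 genes of NMD and the exon junction complex, which destroy the poison-exon transcripts described above, 0 were called by edgeR and 1 had an unadjusted p under 0.05 (6.67%, beside 26.9% of all genes tested), *CASC3*, at 0.27 on the log2 scale (edgeR, adjusted p of 0.082).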

How the data were processed

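For 6 libraries the authors deposited counts of reads per gene symbol from featureCounts, not normalized. Before counting, per the study's methods, reads went through quality checks and filtering by FastQC and Trim Galore, depletion of ribosomal reads with SortMeRNA and alignment with STAR. The submitters' processing notes name hg38, STAR 2.7.9a and featureCounts 2.0.1, and the methods name other versions. The gene annotation, the strand setting and the treatment of multi-mapping reads are not given in the sources used here.

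Genes were filtered with filterByExpr, scaled by TMM and tested across all genes in edgeR 4.0.16 (R 4.3.3; robust quasi-likelihood F test, group as the only term). Standard errors are the log2 fold change divided by the square root of F. Alternatives used DESeq2 1.42.0, limma 3.58.1 and a loess correction (span 0.3) for GC content and exon length, known for 97.3% of tested genes. Symbols were matched to GENCODE 44, 23161 directly and 1357 through a RefSeq synonym. On simulated counts for this comparison (14733 genes, 200 changed by 1 on the log2 scale), edgeR recovered 163 with 13 false calls. The simulation held no trend with GC content. The SR genes ran from -0.24 to 0.24, and recovery of changes that small was not tested.

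Named genes were the 10 members, the other 4 SRSF genes, *CLK1*, *CLK4*, *SRPK1*, *SRPK2*, *TNPO3*, at most 4 called genes per related list by smallest p, and genes overlapping a member. *CASC3* and the individual markers were named after their values were seen. The rule for genes with a pattern most like a called member named none, as no member was called. Members, lists and tests were chosen with earlier results of these data known.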

Additional observations from a re-analysis of the deposited data

How the results depend on the processing

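The number of SR genes called lower was 0 with all 6 libraries and from 0 to 2 with 1 library left out (2 without control replicate 2, *SRSF7* and *TRA2A*), and the number called higher was 0 and from 0 to 1 (1 without control replicate 3, *SRSF5*). Other size factors, library totals alone, both other filters, DESeq2, limma-voom, the replicate block and the correction for GC content and length each gave 0 in both directions. Over all genes, 690 were called lower and 804 higher, from 233 to 1238 and from 289 to 1274 with 1 library left out (most without control replicate 2), and 1450 and 1341 after the correction for GC content and length. The replicate number as a block gave 619 and 714. Under the block *SRSF12*, *DYRK1A*, *PPP1R8* and *HNRNPF* were no longer called (edgeR adjusted p of 0.070, 0.087, 0.073 and 0.11). Libraries with the same replicate number did not deviate together (correlations of -0.20, -0.11 and -0.04), so the numbers were not taken as pairs. The library labels carry a second numbering. It is 1, 4 and 5 for knockdown replicates 1, 2 and 3. For control replicates 1, 2 and 3 it is 10, 11 and 1. A match by that numbering was not examined. Signs of uncalled genes near 0 turned. With the GC and length correction, the log2 fold change of *SRSF1* was 0.016, that of *SRSF3* 0.025 and that of *SRSF4* -0.013. That of *SRSF9* was 0.012 with the block and 0.0070 in limma-voom. With 1 library left out, the ranges were -0.089 to 0.00074 for *SRSF1*, -0.079 to 0.088 for *SRSF3*, -0.072 to 0.16 for *SRSF6*, -0.046 to 0.088 for *SRSF4*, -0.18 to 0.27 for *SRSF9* (called without control replicate 2, adjusted p of 0.042 from edgeR), -0.076 to 0.34 for *CLK1*, -0.088 to 0.018 for *SRPK1*, -0.047 to 0.097 for *SRPK2* and -0.015 to 0.10 for *TNPO3*. The cause was not tested.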

Other observations

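*SRSF9* and its neighbour *DYNLL1*, a dynein light chain gene on the opposite strand whose annotated span overlaps that of *SRSF9* without shared exons, were both high in a single control library. *SRSF9* had 1846 normalized counts in control replicate 2 and from 1058 to 1329 in the other 5 libraries, and *DYNLL1* had 2420 in control replicate 2 and from 1226 to 1368 in the others. *GATC*, which does share exon bases with *SRSF9* on the opposite strand, had from 1394 to 1536 normalized counts over the 6 libraries, without a high value in control replicate 2. *NRAV*, a long noncoding RNA gene, shares exon bases with *SRSF9* on the same strand. It had 96.9, 96.4 and 67.9 normalized counts in control replicates 1, 2 and 3. In knockdown replicates 1, 2 and 3 it had 143, 126 and 115 (0.55 on the log2 scale, edgeR adjusted p of 0.096, not called). These genes were chosen after their values were seen.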
